A study of Mus musculus with 37 samples.

Results

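The expression of 10 genes that mark oligodendrocyte precursor cells was followed in cortical astrocyte libraries from mice with and without post-traumatic epilepsy. The genes were Pdgfra, Cspg4, Olig1, Olig2, Sox10, Gpr17, C1ql1, Neu4, Lhfpl3 and Vcan, chosen by name from the 21975 genes of each TPM table, and all 10 were found in both tables. TPM is an abundance of transcripts corrected for their length and scaled to the same total in each library. The samples were wild type male mice of a strain labelled CD31 in the sample descriptions and CD1 in the methods, whose age is not given in the sources used here. CCI-injured mice received a controlled cortical impact, a mechanical blow, over the right parietal cortex, and sham mice received the craniectomy without the blow. All mice, sham included, carried recording electrodes, and injured mice in which seizures were recorded form the PTE+ group, those without seizures the PTE− group. Cells carrying ACSA-2, a surface antigen of astrocytes, were pulled out on magnetic beads 4 months after surgery, separately from the injured side (ipsilateral) and the opposite side (contralateral). The ipsilateral libraries came from 5 sham, 10 PTE− and 4 PTE+ mice and the contralateral libraries from 5 sham, 9 PTE− and 4 PTE+ mice, 37 libraries of 20 mice in all. Both hemispheres were sequenced for 17 mice (5 sham, 9 PTE− and 3 PTE+).

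Oligodendrocyte precursor cells, also called NG2 glia, divide in the adult cortex and mature through a committed stage into myelinating oligodendrocytes. They carry the PDGF receptor alpha and the proteoglycan NG2 on their surface, and OLIG1, OLIG2 and SOX10 are transcription factors of the whole oligodendrocyte lineage. Some astrocytes also express Olig1 and Olig2, pericytes express Cspg4, and fibroblasts of the meninges and vessels express Pdgfra, so none of these genes marks the precursor cell alone. In bulk RNA, fewer cells of a type and less RNA per cell cannot be told apart.

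Astrocyte genes were high in the libraries. Slc1a3, the astrocyte glutamate transporter, had 1420 to 3308 TPM and Aldh1l1 had 250 to 576 TPM outside 1 library. Genes of other cells were also present, and not all of them at lower levels. Snap25 of neurons had up to 274 TPM, Cldn5 of endothelial cells 79.9 to 584 TPM and Cx3cr1 of microglia 0.67 to 42.8 TPM. Mbp of myelin and Vtn of mural cells had medians of 1041 and 1127 TPM outside the same library. Both medians lay above the range of Aldh1l1 and below that of Slc1a3. The ipsilateral library of PTE− mouse 9_14 stood apart. It had 10727 genes above 0 TPM against 15599 to 18534 in the other 36 libraries, its median correlation with the libraries of its group was 0.85 against 0.966 to 0.989 elsewhere, and 7 of the 10 precursor genes were listed at 0 TPM there. The other 3 genes had 35.6 TPM (Cspg4), 81.3 TPM (Olig2) and 156 TPM (Olig1), and its summed level of 11 mural cell genes, 5126 TPM, was the highest of all libraries. Of that sum Vtn held 4285 TPM, while 3 of the 11 mural genes were at 0 TPM. Mouse names begin with 8 or 9, a prefix whose meaning is not stated. In the ipsilateral libraries without mouse 9_14, all 10 genes had a higher median with prefix 9 than with prefix 8, and in the contralateral libraries 7 genes did.

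The level of the genes differed widely. Over all 37 libraries Olig1 averaged 194 ± 45.8 TPM (SD, n = 37), Olig2 46.6 ± 16.9 TPM, C1ql1 19.9 ± 14.95 TPM, Cspg4 8.53 ± 6.25 TPM and Neu4 5.15 ± 4.18 TPM. Pdgfra averaged 4.67 ± 3.74 TPM, Sox10 4.60 ± 4.2 TPM, Lhfpl3 3.81 ± 2.22 TPM, Gpr17 3.77 ± 3.46 TPM and Vcan 1.59 ± 0.954 TPM. Olig1 lay above Olig2 in 37 of 37 libraries, Olig2 above C1ql1 in 33, C1ql1 above Cspg4 in 32 and Cspg4 above Neu4 in 31. The order from Neu4 to Gpr17 was not settled, since Neu4 lay above Pdgfra in 18 libraries, Pdgfra above Sox10 in 23, Sox10 above Lhfpl3 in 17 and Lhfpl3 above Gpr17 in 18. The summed level of the 10 genes had medians from 275 to 313 TPM over the 6 groups, and most of it was Olig1 and Olig2.

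**Figure D1:**
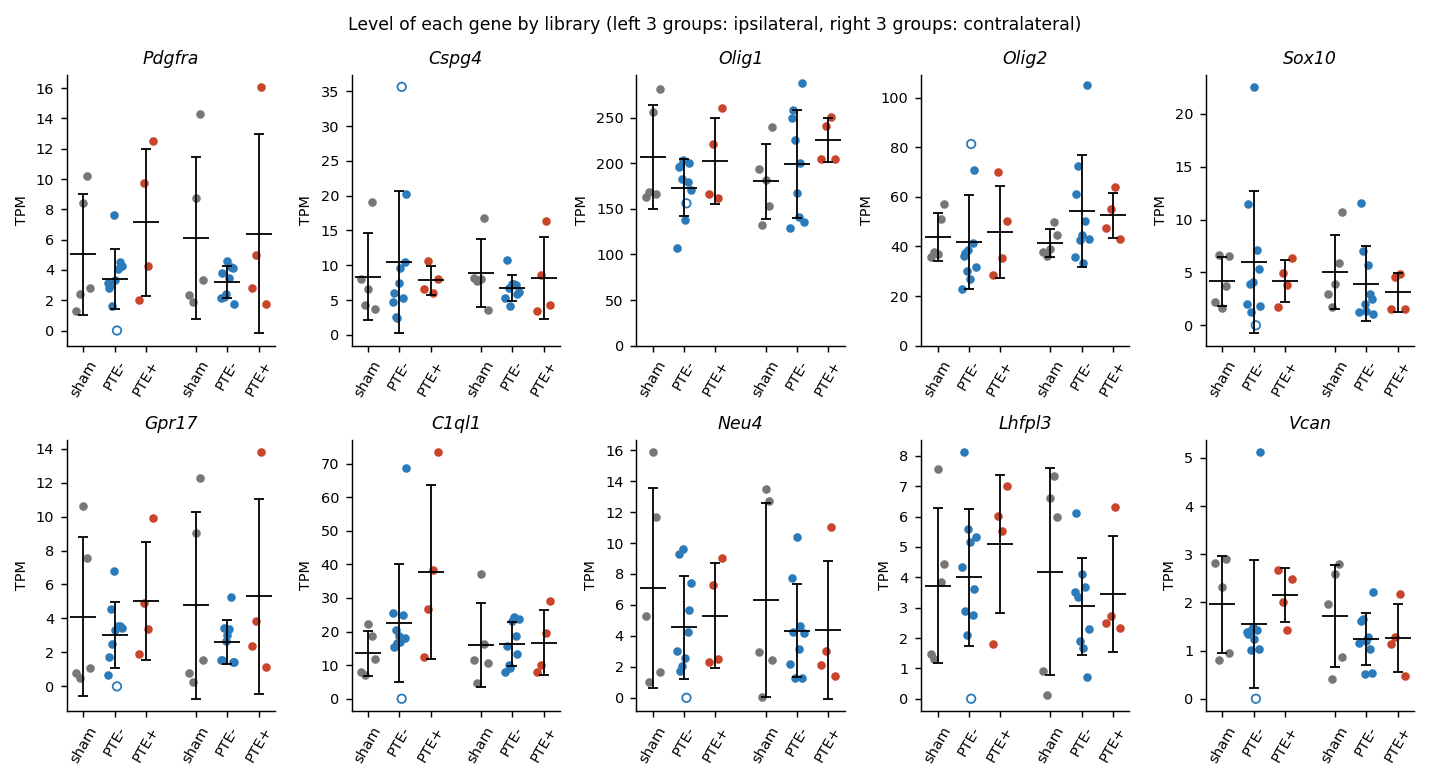
TPM of each of the 10 genes in every library, by group, with the ipsilateral groups left and the contralateral groups right in each panel. Points are libraries, black lines are the mean and SD, and the open circle is the ipsilateral library of PTE− mouse 9_14, which was at 0 TPM for 7 genes. In Pdgfra, Gpr17 and Neu4 single libraries reached 9 TPM or more while the rest lay lower, and the groups overlapped in every panel.

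Promoter sequence from RefSeq (GRCm38.p6) was at hand for 6 of the 10 genes, Pdgfra, Cspg4, Olig2, Neu4, Lhfpl3 and Vcan. The sequences of Pdgfra and Neu4, a receptor gene and a sialidase gene whose levels moved together over mice, and of Olig2, which differed between hemispheres, are shown up to the more upstream of the RefSeq and GENCODE starts, on the plus strand. Capitals mark the letters CANNTG, the E-box that basic helix-loop-helix factors such as OLIG1 and OLIG2 can bind, read the same on both strands. The windows are chr5:75152001-75152250 for Pdgfra, chr1:94020243-94020450 for Neu4 and chr16:91225300-91225456 for Olig2.
Pdgfra: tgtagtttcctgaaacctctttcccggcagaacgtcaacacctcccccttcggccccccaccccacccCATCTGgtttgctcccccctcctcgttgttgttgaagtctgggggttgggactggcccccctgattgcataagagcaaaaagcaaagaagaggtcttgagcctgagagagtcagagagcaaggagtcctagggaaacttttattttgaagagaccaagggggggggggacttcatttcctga
Neu4: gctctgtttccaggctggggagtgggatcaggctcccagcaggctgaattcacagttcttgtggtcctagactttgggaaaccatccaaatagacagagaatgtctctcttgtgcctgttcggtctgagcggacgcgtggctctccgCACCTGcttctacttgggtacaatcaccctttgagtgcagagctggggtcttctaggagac
Olig2: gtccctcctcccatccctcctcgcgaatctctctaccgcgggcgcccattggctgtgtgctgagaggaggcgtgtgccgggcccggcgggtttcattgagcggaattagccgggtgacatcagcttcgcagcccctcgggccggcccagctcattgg
The window of Pdgfra held 1 E-box, 182 bases before its RefSeq start, and that of Neu4 held 1, 103 bases before its RefSeq start, while the window of Olig2 held 0. Of all 32851 promoters in the table, 66.2%, 60.3% and 50.8% held an E-box in windows of the same length, so a match is common. The letters ACAAAG and ACAATG, core words of SOX factors, were searched on both strands and matched 0 times in the 3 windows. They occurred in 16.5% and 10.7% of all promoters at the length of the Pdgfra window.

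To ask whether injury or epilepsy moved the precursor genes, the groups were compared within each hemisphere. A gene was tested when its mean exceeded 5 TPM in 1 or more of the compared groups, and was called a differentially expressed gene (DEG) at an unadjusted p under 0.05 with a fold change of at least 1.2, in limma, a linear model that shares the spread across genes. Log2 fold changes (Log2FC) are differences of mean log2(TPM + 1) and understate the change of genes with low TPM. A gene whose mean exceeded 5 TPM in 1 group alone can lean towards a higher value in that group. Of the 59 values tested for precursor genes in the 8 comparisons of groups, 1 was a DEG, C1ql1 in ipsilateral PTE+ against sham mice. In that comparison 1 of 8 tested precursor genes was a DEG, against 1.56% of all tested genes. In the others 0 were DEGs, of 7 tested in ipsilateral CCI against sham (1.62% of all genes), of 9 in ipsilateral PTE+ against PTE− (0.573%), of 7 in ipsilateral PTE− against sham (1.54%), of 7 in contralateral CCI against sham (4.05%), of 6 in contralateral PTE+ against PTE− (2.79%), of 7 in contralateral PTE− against sham (3.76%) and of 8 in contralateral PTE+ against sham (1.97%). No gene of the whole table reached an adjusted p under 0.05 in these 8 comparisons (limma with Benjamini-Hochberg adjustment), while 63 to 472 genes per comparison had an unadjusted p under 0.05. The exact permutation test, run for all 10 genes in all 8 comparisons, gave a p under 0.05 in 0 of 80 tests. The PTE+ and PTE− comparisons with sham use the same sham libraries.

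**Figure D2:**
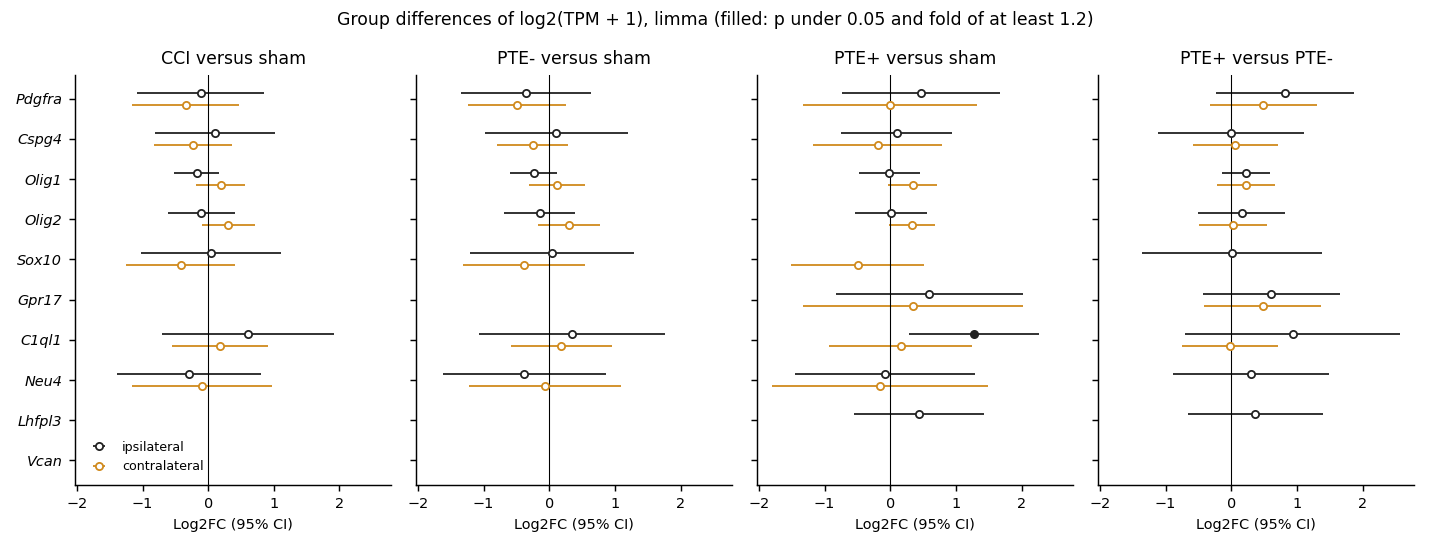
Log2FC of each tested gene with its 95% confidence interval from limma, for 4 comparisons of groups, ipsilateral in black and contralateral in orange. The x axis is the difference of mean log2(TPM + 1), and a filled point marks a DEG. Only C1ql1 in ipsilateral PTE+ against sham mice is filled, and untested genes, such as Vcan, have no point.

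Pdgfra (ENSMUSG00000029231, chr5:75152292-75198215) encodes the receptor through which PDGF drives the division of precursor cells. In ipsilateral sham mice it measured 1.31, 2.39, 2.84, 8.40 and 10.2 TPM, and in PTE+ mice 2.03, 4.25, 9.72 and 12.5 TPM. In the 10 ipsilateral PTE− mice it ran from 0 TPM in mouse 9_14 over a median of 3.23 to 7.60 TPM. The 2 highest PTE+ mice lay above every PTE− mouse, while the other 2 lay among them. The Log2FC of PTE+ against PTE− mice was 0.81 (95% CI −0.24 to 1.87, limma adjusted p = 0.977, exact permutation p = 0.156, n = 4 and 10), and 0.60 without mouse 9_14 (exact permutation p = 0.162). It was 1.12 among mice with prefix 9 (3 PTE+ and 6 PTE−, mouse 9_14 at 0 TPM included) and −0.24 among those with prefix 8 (1 and 4). Without PTE+ mouse 8_10 it was 1.21 and a DEG, the only one of 13 alternatives, which ran from 0.38 to 1.21. In the contralateral cortex the PTE+ mice had 1.74, 2.82, 4.96 and 16.1 TPM, the 9 PTE− mice 1.78 to 4.62 TPM (median 3.48) and the sham mice 1.89, 2.33, 3.33, 8.74 and 14.3 TPM. Mouse 9_17 was the highest PTE+ mouse and mice 9_10 and 9_11 the highest sham mice there. The Log2FC of PTE+ against PTE− was 0.49 (95% CI −0.32 to 1.30, exact permutation p = 0.276, n = 4 and 9). It was 0.84 and a DEG without PTE+ mouse 9_18, the only one of 11 alternatives, which ran from 0.09 to 0.84. Without PTE+ mouse 9_17 the PTE+ values were 1.74, 2.82 and 4.96 TPM, beside the PTE− median of 3.48 TPM. Pdgfra then no longer passed the filter. On both sides it passed the filter through PTE+ mice alone, which can favour a higher value in PTE+ mice. After CCI, Pdgfra differed from sham by −0.12 (95% CI −1.08 to 0.85) on the ipsilateral side, or 0.05 without mouse 9_14, and by −0.34 (95% CI −1.15 to 0.47) on the contralateral side. The direction was not the same within the prefixes. On the ipsilateral side the difference was 0.31 with prefix 8 and −0.44 with prefix 9, mouse 9_14 included. On the contralateral side it was 0.35 and −0.77.

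Cspg4 (ENSMUSG00000032911, chr9:56865033-56899870) encodes the NG2 proteoglycan, which pericytes share with precursor cells. It measured 3.79, 4.30, 6.55, 8.06 and 19.1 TPM in ipsilateral sham and 6.0, 6.64, 8.08 and 10.7 TPM in ipsilateral PTE+ mice. The PTE− mice ran from 2.43 over a median of 6.74 to 35.6 TPM, the last in mouse 9_14. The groups overlapped fully, and the Log2FC after CCI was 0.10 (95% CI −0.82 to 1.02, exact permutation p = 0.829, n = 14 and 5), or −0.06 without mouse 9_14. It was −0.42 among mice with prefix 8 and 0.37 among those with prefix 9, mouse 9_14 at 35.6 TPM included. On the contralateral side it was −0.23 (95% CI −0.83 to 0.36, exact permutation p = 0.447, n = 13 and 5). Over libraries centred on their group means, Cspg4 moved with the summed level of 11 mural cell genes, with r = 0.898 over 19 ipsilateral libraries, r = 0.836 without mouse 9_14 and r = 0.596 over 18 contralateral libraries. These correlations are descriptions, and the points share their library, its purity and its depth. Vtn, with a median of 1127 TPM outside mouse 9_14, made up most of the mural sum, so r leans on that gene. The summed mural level overlapped between groups, from 1046 to 2702 TPM in ipsilateral sham, 858 to 5126 TPM in PTE− and 1431 to 1818 TPM in PTE+ mice.

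Vcan (ENSMUSG00000021614, chr13:89655312-89742509), which encodes the matrix proteoglycan versican, stayed below the limit of 5 TPM in every group and was tested only by permutation. It had 0.80 to 2.91 TPM in ipsilateral sham, 0 to 5.12 TPM in PTE− and 1.43 to 2.68 TPM in PTE+ mice. In the contralateral cortex it had 0.40 to 2.80 TPM in sham, 0.51 to 2.22 TPM in PTE− and 0.47 to 2.18 TPM in PTE+ mice. All groups overlapped, and the smallest exact permutation p over the 8 comparisons was 0.257, for ipsilateral PTE+ against PTE− mice at a Log2FC of 0.42 (n = 4 and 10).

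Olig1 and Olig2 encode basic helix-loop-helix transcription factors that specify the oligodendrocyte lineage, and lie close to each other at chr16:91269772-91271933 (ENSMUSG00000046160) and chr16:91225457-91228677 (ENSMUSG00000039830). In the ipsilateral cortex Olig1 measured 163, 166, 168, 256 and 281 TPM in sham and 161, 166, 221 and 261 TPM in PTE+ mice, and in PTE− mice it ran from 107 over a median of 181 to 203 TPM. In the contralateral cortex it measured 132, 153, 181, 194 and 239 TPM in sham, 205, 205, 241 and 250 TPM in PTE+ mice, and 129 to 288 TPM (median 201) in PTE− mice. The contralateral PTE+ mice thus all lay above the sham median, and the Log2FC was 0.34 (95% CI −0.03 to 0.72, limma adjusted p = 0.9997, exact permutation p = 0.0873, n = 4 and 5). It was 0.45 and a DEG without sham mouse 9_9.

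Olig2 measured 35.7, 37.0, 37.7, 51.1 and 57.3 TPM in ipsilateral sham, 28.3, 35.2, 50.2 and 70.0 TPM in PTE+ mice, and 23.1 to 81.3 TPM (median 36.6) in PTE− mice, where mouse 9_14 was the highest. Its contralateral levels were 36.3, 37.8, 38.8, 44.7 and 49.8 TPM in sham, 43.1, 47.6, 55.2 and 64.1 TPM in PTE+, and 33.2 to 105 TPM (median 44.7) in PTE− mice. After CCI the Log2FC of Olig2 was −0.10 (95% CI −0.62 to 0.41, exact permutation p = 0.700, n = 14 and 5) on the ipsilateral side, or −0.18 without mouse 9_14, and 0.31 (95% CI −0.10 to 0.71, exact permutation p = 0.154, n = 13 and 5) on the contralateral side, where 11 of 13 injured mice lay above the sham median. Contralateral PTE+ mice differed from sham by 0.33 (95% CI −0.03 to 0.68, exact permutation p = 0.0635, n = 4 and 5), with 4 of 4 above the sham median. Both contralateral values of Olig2 became DEGs when the libraries were scaled by quantiles (0.37 after CCI and 0.36 in PTE+ mice) or centred on their medians (0.41 and 0.38). The value in PTE+ mice was also a DEG without the filter on TPM, without sham mouse 9_11 and without PTE+ mouse 9_18 (0.33 to 0.41). With the prefix, the contralateral CCI difference of Olig2 was 0.46 among mice with prefix 8 (6 and 2) and 0.21 among those with prefix 9 (7 and 3).

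Sox10 (ENSMUSG00000033006, chr15:79154908-79165240) is the SOX factor that the oligodendrocyte lineage keeps at every stage. It measured 1.68, 2.20, 3.68, 6.57 and 6.61 TPM in ipsilateral sham, 1.73, 3.79, 4.91 and 6.34 TPM in PTE+, and 0 to 22.6 TPM (median 4.00) in PTE− mice, the last in mouse 9_13. In the contralateral cortex it had 1.75 to 10.7 TPM in sham, 1.04 to 11.6 TPM in PTE− and 1.5 to 4.90 TPM in PTE+ mice. The groups overlapped, with a Log2FC after CCI of 0.04 (95% CI −1.03 to 1.11) on the ipsilateral side, or 0.22 without mouse 9_14, and −0.42 (95% CI −1.25 to 0.41) on the contralateral side. The contralateral value was 0.48 among mice with prefix 8 (6 and 2) and −1.06 among those with prefix 9 (7 and 3). Contralateral PTE+ mice differed from sham by −0.49 (95% CI −1.51 to 0.52), a DEG among the 15 alternatives only with array weights (−0.92), by which a library unlike the rest of its group counts for less. This difference was 0.18 with prefix 8 (2 and 2) and −0.93 with prefix 9 (2 and 3).

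C1ql1 (ENSMUSG00000045532, chr11:102939264-102946688) encodes a secreted protein of the C1q family that precursor cells and some neurons make. In the ipsilateral cortex it measured 7.08, 7.98, 11.9, 18.6 and 22.3 TPM in sham and 12.6, 26.7, 38.4 and 73.4 TPM in PTE+ mice. The PTE− mice ran from 0 TPM in mouse 9_14, with 15.3 TPM as the next value, over a median of 18.5 to 68.6 TPM. Of the 4 PTE+ mice 3 lay above every sham mouse, while the PTE− mice overlapped both groups. Against sham, C1ql1 was higher in PTE+ mice by a Log2FC of 1.28 (SE 0.46, 95% CI 0.28 to 2.27, limma p = 0.0163, adjusted p = 1.0), the 1 DEG among the precursor genes, whereas the exact permutation test gave p = 0.0556 (n = 4 and 5), where 0.00794 is the smallest p possible. The difference was 1.26 among mice with prefix 9 (3 and 3) and 0.67 among those with prefix 8 (1 and 2). It was no DEG without PTE+ mouse 9_19 (0.88) or when the spread was estimated over all 3 groups (1.28, p = 0.125 in limma). After CCI as a whole the Log2FC was 0.61 (95% CI −0.70 to 1.92, exact permutation p = 0.390, n = 14 and 5). Without mouse 9_14 it was 0.95, a DEG with an exact permutation p = 0.0274 (n = 13 and 5), and PTE− against sham moved likewise from 0.34 (exact permutation p = 0.670, n = 10 and 5) to 0.80 (exact permutation p = 0.0405, n = 9 and 5). Within prefix 8 the CCI difference was 1.12 (5 and 2) and within prefix 9, mouse 9_14 included, 0.25 (9 and 3).

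In the contralateral cortex C1ql1 had 4.82, 10.5, 11.5, 16.3 and 37.0 TPM in sham, 7.92, 10.1, 19.6 and 29.1 TPM in PTE+, and 7.84 to 24.3 TPM (median 15.7) in PTE− mice. The 3 groups overlapped, and PTE+ differed from sham by 0.16 (95% CI −0.93 to 1.25, exact permutation p = 0.802, n = 4 and 5). Of 13 astrocyte genes, Gfap and Aqp4 were also DEGs in ipsilateral PTE+ against sham mice, at Log2FC of 1.29 and 0.56. Gfap encodes the filament protein of reactive astrocytes and Aqp4 the water channel of their endfeet. The summed level of the 13 genes was 19600 to 27090 TPM in ipsilateral sham and 20900 to 25020 TPM in PTE+ mice, and the part of astrocyte genes in the C1ql1 values was not tested.

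The remaining genes mark stages of the lineage. Gpr17 (ENSMUSG00000052229) encodes a receptor of committed precursors, Neu4 (ENSMUSG00000034000, chr1:94020451-94028334) a sialidase and Lhfpl3 (ENSMUSG00000106379, chr5:22746059-23275597) a membrane protein of the tetraspan type. Gpr17 measured 0.49, 0.81, 1.07, 7.55 and 10.6 TPM in ipsilateral sham, 1.91, 3.35, 4.93 and 9.91 TPM in PTE+, and 0 to 6.82 TPM (median 3.37) in PTE− mice. The sham mice thus fell into 3 low and 2 high values. The same mice, 9_10 and 9_11, were the high ones on the contralateral side, with 9.03 and 12.3 TPM against 0.26 to 1.53 TPM in the other 3. Neu4 showed the same 2 sham mice highest, at 15.9 and 11.7 TPM ipsilateral and 13.5 and 12.7 TPM contralateral, against 1.02 to 5.27 and 0.03 to 2.99 TPM in the other 3. Lhfpl3 ran from 1.32 to 7.56 TPM in ipsilateral sham, 0 to 8.12 TPM in PTE− and 1.80 to 6.99 TPM in PTE+ mice. The Log2FC of ipsilateral PTE+ against PTE− mice was 0.61 for Gpr17 (95% CI −0.43 to 1.66), 0.30 for Neu4 (95% CI −0.89 to 1.49) and 0.37 for Lhfpl3 (95% CI −0.65 to 1.39), and all 3 intervals hold 0. Without mouse 9_14 these values were 0.41, 0.06 and 0.13. Among mice with prefix 9 (3 PTE+ and 6 PTE−) they were 0.78, 0.49 and 0.82, and with prefix 8 (1 and 4) −0.08, −0.36 and −0.82. The prefix 9 values take in mouse 9_14, at 0 TPM for all 3 genes, and lean on that library. All 3 genes passed the filter through PTE+ mice alone, with means of 5.025, 5.295 and 5.088 TPM. The PTE− means were 3.014, 4.556 and 3.993 TPM, so the Log2FC can lean towards PTE+ mice.

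To ask whether the injured side differed from the opposite side, both hemispheres of the same mouse were compared. Olig2 was lower on the ipsilateral side in 9 of 9 PTE− mice, by differences of log2(TPM + 1) from −0.95 to −0.20, while C1ql1 was higher on that side in 6 of 9. In the 5 sham mice the difference of Olig2 was −0.08, −0.07, 0.04, 0.05 and 0.35, so that every PTE− mouse lay below every sham mouse. In the model with the mouse as a block, Olig2 was lower by 0.51 on the ipsilateral side of PTE− mice (SE 0.09, 95% CI −0.69 to −0.32, limma p = 4.8e-05, adjusted p = 0.0663), and the exact sign-flip permutation test gave p = 0.00391, the smallest that 9 mice allow. Its levels in these mice were 23.1 to 70.7 TPM ipsilateral and 33.2 to 105 TPM contralateral. The difference within the mouse was a DEG in each of 6 alternatives, from −0.53 to −0.51. Against sham mice, Olig2 of PTE− mice lay at −0.15 on the ipsilateral side (−0.26 without mouse 9_14) and at 0.30 on the contralateral side. Their intervals held 0 (95% CI −0.70 to 0.40 and −0.17 to 0.77), so which side moved is not settled. C1ql1 was higher by 0.54 on the ipsilateral side of PTE− mice (SE 0.21, 95% CI 0.10 to 0.98, limma p = 0.0207, adjusted p = 0.449, exact sign-flip permutation p = 0.0664, n = 9 mice). In PTE− mice 2 of 6 tested precursor genes were DEGs within the mouse, against 5.95% of all tested genes. Without the block, which also takes in mouse 9_14, 0 of 5 were, against 1.99%, with Olig2 at −0.39 and C1ql1 at 0.09.

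In PTE+ mice 3 pairs were at hand, and the smallest exact sign-flip p is 0.25. C1ql1 differed by 0.39, 0.42 and 0.60, higher on the ipsilateral side in 3 of 3 mice, with a mean of 0.47 (95% CI 0.10 to 0.85, limma p = 0.0198, adjusted p = 0.999). It was the only DEG of 6 tested precursor genes, against 3.86% of all tested genes, and was no DEG without mouse 8_10 (0.41) or 9_17 (0.50). Olig1 differed by −0.34, −0.30 and −0.18 (mean −0.27, 95% CI −0.56 to 0.02) and Olig2 by −0.73, −0.29 and 0.13 (mean −0.30, 95% CI −0.73 to 0.14). Without the block 0 of 8 were DEGs in PTE+ mice, against 1.62%, with C1ql1 at 1.04. In sham mice 0 of 7 were DEGs with the block, against 6.91% of all genes, and 0 of 7 without it, against 1.19%. There Olig2 differed by 0.06 (95% CI −0.20 to 0.32), Olig1 by 0.19 (95% CI −0.07 to 0.45) and C1ql1 by −0.07 (95% CI −0.51 to 0.36), and with 5 mice no exact sign-flip p can reach 0.05. Olig1 became a DEG in sham mice, at 0.31, once libraries were centred on their medians, and at 0.30 without sham mouse 8_15.

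**Figure D3:**
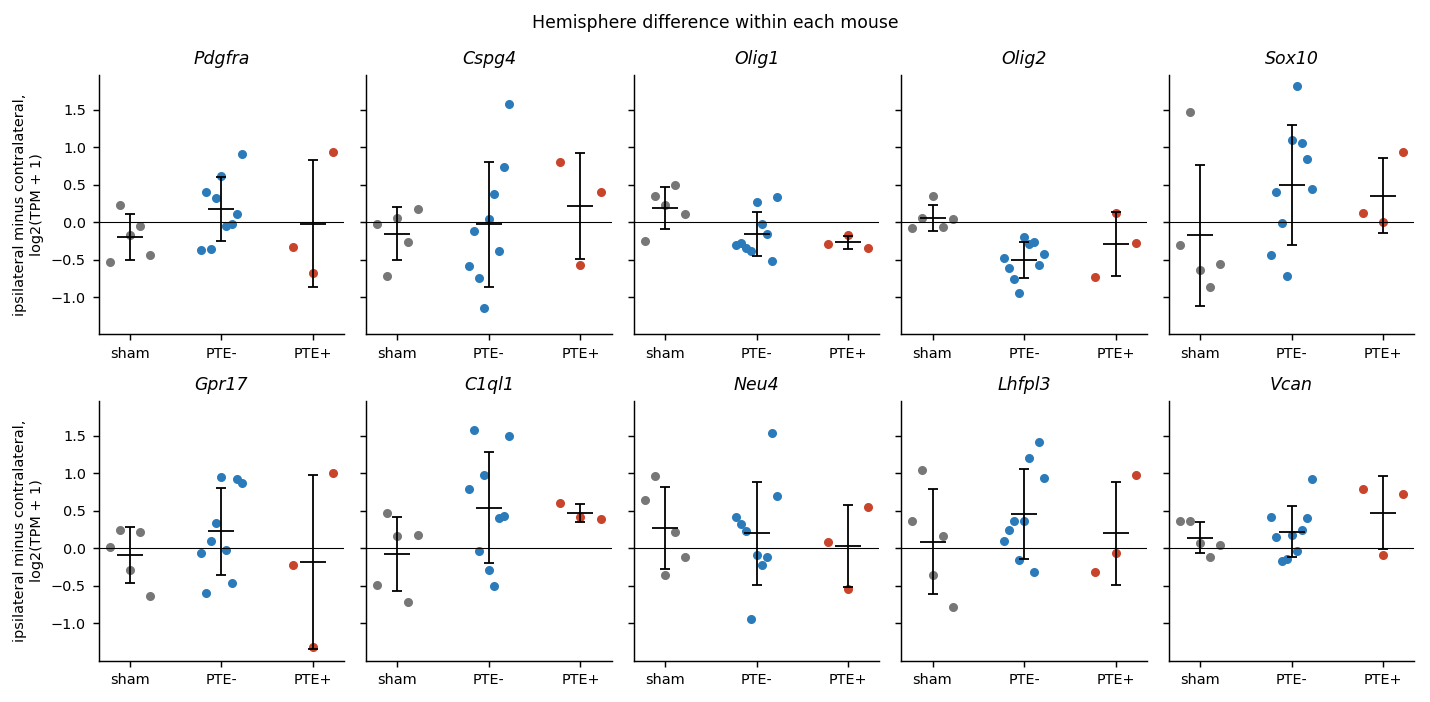
Ipsilateral minus contralateral log2(TPM + 1) within each of 17 mice, by group, with 1 point per mouse and the mean and SD in black. Olig2 lies below 0 in all 9 PTE− mice and around 0 in the 5 sham mice, and C1ql1 lies above 0 in all 3 PTE+ mice.

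The hemisphere difference itself was then compared between CCI-injured and sham mice. Olig2 differed between hemispheres by −0.45 in 12 injured and 0.06 in 5 sham mice, a change of −0.51 (SE 0.14, 95% CI −0.81 to −0.21, limma p = 0.00184, adjusted p = 0.569; exact permutation p = 0.00275). It was −0.69 among mice with prefix 8 (5 and 2) and −0.38 among those with prefix 9 (7 and 3), and was a DEG in 14 of 14 alternatives, from −0.63 to −0.44. Olig1 moved the same way, at −0.19 in injured and 0.19 in sham mice, a change of −0.37 (95% CI −0.66 to −0.09, limma p = 0.0130, adjusted p = 0.709; exact permutation p = 0.0200, n = 12 and 5). Its change was −0.37 within each prefix, and it was no DEG without sham mouse 9_10 (−0.30). C1ql1 changed in the other direction by 0.60 (95% CI −0.01 to 1.2, exact permutation p = 0.0814), which did not pass the test, and Sox10 by 0.64 (95% CI −0.17 to 1.45), at 1.57 with prefix 9 and −0.71 with prefix 8. Of 7 tested precursor genes 2 were DEGs here, against 6.50% of all tested genes, and without the block 0 of 7 were, against 1.37%, with Olig2 at −0.41 and Olig1 at −0.36. Between PTE+ and PTE− mice the hemisphere difference of Olig2 was apart by 0.21 (exact permutation p = 0.295, n = 3 and 9), so the lower ipsilateral level seen in PTE− mice was not shown to be particular to them. Over all 12 injured mice Olig2 was lower on the ipsilateral side in 11, Olig1 in 10, and C1ql1 was higher in 9 (two-sided exact sign-flip permutation p = 0.000977, 0.0337 and 0.0142). In the same test Vcan differed by 0.29 (higher in 8 of 12, exact p = 0.0239), Sox10 by 0.46 (9 of 12, exact p = 0.0469) and Lhfpl3 by 0.40 (8 of 12, exact p = 0.0498), and the other 4 genes had an exact p of 0.417 or more, all unadjusted.

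Mice with high levels of a precursor gene in one hemisphere tended to have them in the other. Over the 17 mice with both libraries, each centred on the mean of its group, the ipsilateral and contralateral log2(TPM + 1) correlated with Pearson's r from 0.503 for Cspg4 to 0.825 for Neu4, 0.823 for Olig2 and 0.798 for Pdgfra. Spearman's rho ran from 0.503 for Cspg4 to 0.814 for Pdgfra. These are descriptions, and the libraries of 1 mouse share its dissection and its name prefix. PTE+ mouse 9_17, for instance, had 9.72 TPM of Pdgfra on the ipsilateral and 16.1 TPM on the contralateral side, where sham mouse 9_11 had 10.2 and 14.3 TPM and sham mouse 8_15 had 1.31 and 2.33 TPM.

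**Figure D4:**
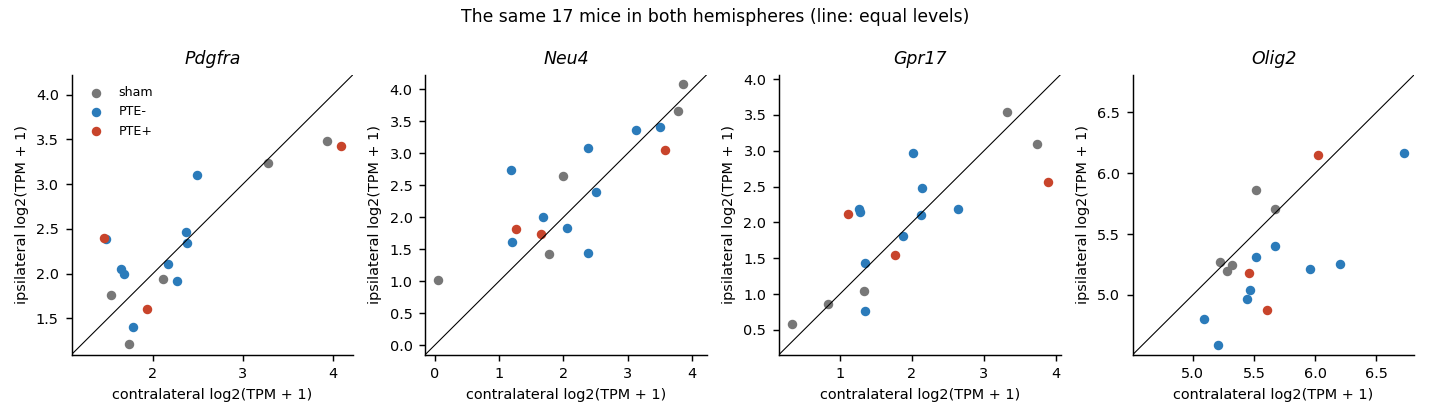
Ipsilateral (y axis) against contralateral (x axis) log2(TPM + 1) of Pdgfra, Neu4, Gpr17 and Olig2 in the 17 mice sequenced on both sides, coloured by group, with the line of equal levels. Pdgfra, Neu4 and Gpr17 scatter along the line, and 11 of 12 injured mice lie below it for Olig2.

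The levels of the genes were also compared with each other in group-centred libraries. Over all 45 pairs r ran from −0.424 to 0.839 (median 0.349) in 18 ipsilateral libraries without mouse 9_14 and from −0.0964 to 0.896 (median 0.412) in 18 contralateral libraries. The 6 pairs among Pdgfra, Gpr17, Neu4 and Lhfpl3, chosen after the correlations were seen, correlated with r from 0.539 to 0.839 over 18 ipsilateral libraries without mouse 9_14 and from 0.632 to 0.896 over 18 contralateral libraries. Pairs outside these 4 genes reached similar values on the contralateral side, such as Neu4 with Vcan (r = 0.842) and Pdgfra with Cspg4 (r = 0.748). The 16 pairs of Olig1 or Olig2 with another precursor gene had a median r of 0.26 and 0.12 in the same libraries, while Olig1 and Olig2 correlated with r = 0.633 and 0.766. Olig2 and the summed level of 19 myelin genes had r = −0.366 in the ipsilateral libraries without mouse 9_14 and r = −0.126 in the contralateral ones. Sox10 and the same sum had r = 0.117 and 0.238. Pdgfra and the summed level of 19 other precursor genes had r = −0.08 and −0.67. Most of that sum was Scrg1 and Rlbp1, with medians of 533 and 171 TPM. The sum therefore says little about low genes of the list, such as Cacng4 with a median of 5.88 TPM. The other genes whose level was most like the mean of the precursor genes, ranked by the lower r of both hemispheres, included Akna, Dnmt3a, Ncoa1, Ddx42, Ano1, Sh3bp4, Cobll1, Casp2 and Magi3, with lower r from 0.827 to 0.870 over 19 and 18 libraries. Without mouse 9_14 the 10 most alike were Usp4, Ncoa1, Nedd4, Ddx42, Kmt5b, Supt16, Ehd3, Fkbp15, Copa and Ift122, with lower r from 0.806 to 0.864. In that ranking the 12 other precursor genes had a median r of 0.30, the 9 committed precursor genes 0.37, the 13 astrocyte genes 0.42, the 11 myelin genes −0.55 and the 8 neuron genes −0.58, against 0.17 over all 10091 genes. With mouse 9_14 these medians were 0.317, 0.345, 0.405, −0.356 and −0.206, against 0.0959 over all 10061 genes. Likeness over so few libraries can also reflect purity and depth, whose part was not tested.

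The rest of the lineage was followed by lists of genes. Of 19 other precursor genes, 12 were tested in each comparison. In ipsilateral CCI against sham mice 0 were DEGs and their median Log2FC was −0.01, beside −0.01 over all tested genes. Within PTE− mice 3 of 12 were higher on the ipsilateral side, among them Matn4 of the matrix (1.28) and Emid1 (0.44), and 0 lower. Of all tested genes 5.95% were DEGs there, and the median was 0.15 in the list against −0.01 over all genes. Matn4 was also higher in PTE+ mice (0.72). In the change after CCI of the hemisphere difference Matn4 (1.04) and Emid1 (0.47) were the 2 DEGs of 12, against 6.50% of all tested genes. Of the 9 tested genes of committed precursors and new oligodendrocytes, 0 were DEGs in the 8 comparisons of groups, and Bcas1 was lower on the ipsilateral side in PTE− (−0.50) and PTE+ mice (−0.93). Of the PDGF ligands and the other receptor, 4 were tested in the 8 comparisons, and only Pdgfa, the main ligand of the receptor that Pdgfra encodes, was a DEG, higher by 0.33 in contralateral PTE+ against PTE− mice. None of 8 cell cycle genes passed the filter, and their summed level was 3.39 to 11.8 TPM in ipsilateral sham, 0.12 (mouse 9_14) to 43.3 TPM in PTE− and 5.50 to 16.3 TPM in PTE+ mice.

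Genes of mature oligodendrocytes and myelin follow the precursor stage. In ipsilateral CCI against sham mice 7 of 15 tested were lower and 0 higher, with a median Log2FC of −0.90, while 1.62% of all tested genes were DEGs. Mag, Tmem125, Hapln2, Opalin and Mog, all among the 7, are the genes the paper names as most downregulated in this comparison. The list was chosen with earlier results of these data known, so the count is no independent result. Mog, which encodes a glycoprotein of the outer myelin sheath, had a Log2FC of −1.75, Mag −1.53 and Hapln2 −1.43 (limma, each adjusted p = 0.9997). In that comparison the median of the 7 tested precursor genes was −0.10 and that of all tested genes −0.01. In ipsilateral PTE− against sham mice 6 of 15 were lower (1.54% of all tested genes were DEGs), with a median of −1.04. In ipsilateral PTE+ against sham mice 0 of 15 were DEGs (1.56% of all tested genes), with a median of −0.71. Whether PTE+ and PTE− mice differed in these genes was tested directly for 9 of them, of which 0 were DEGs. The others of the 15 passed the filter of 5 TPM through sham mice alone. The counts and medians against sham can therefore lean towards lower values in injured mice. In PTE− mice 5 of 12 myelin genes were lower on the ipsilateral than the contralateral side of the same mouse, and 0 higher, against 5.95% DEGs among all tested genes. Among the 5 were Mog (−1.08), Mobp (−0.87) and Mbp (−0.68). In PTE+ mice Mobp (−1.07) and Mbp (−0.84) were lower, while Aspa (0.43) and Cnp (0.30) were among those higher. The summed myelin level was 571 to 4604 TPM in ipsilateral sham, 826 to 2366 TPM in PTE− and 1268 to 2497 TPM in PTE+ mice, so single sham mice span the whole range. The summed level of astrocyte genes differed by −0.01 between hemispheres in PTE− mice (exact sign-flip permutation p = 0.797, n = 9) and by 0.20 in PTE+ mice, and that of myelin genes by −0.47 (exact sign-flip permutation p = 0.0664, n = 9) and −0.43. In the same PTE− mice Gfap (1.25) and the neuronal gene Gad1 (0.31) were higher on the ipsilateral side, and the mural gene Rgs5 (−0.44) and the endothelial genes Pecam1 (−0.40) and Ly6c1 (−0.48) were lower. Such genes were lower on that side in sham mice too, with Rgs5 at −0.47, Flt1 at −0.50 and Kdr at −0.62, while Pecam1 and Ly6c1 were no DEGs there. The part of these cells in the hemisphere difference of Olig2 was not tested.

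**Figure D5:**
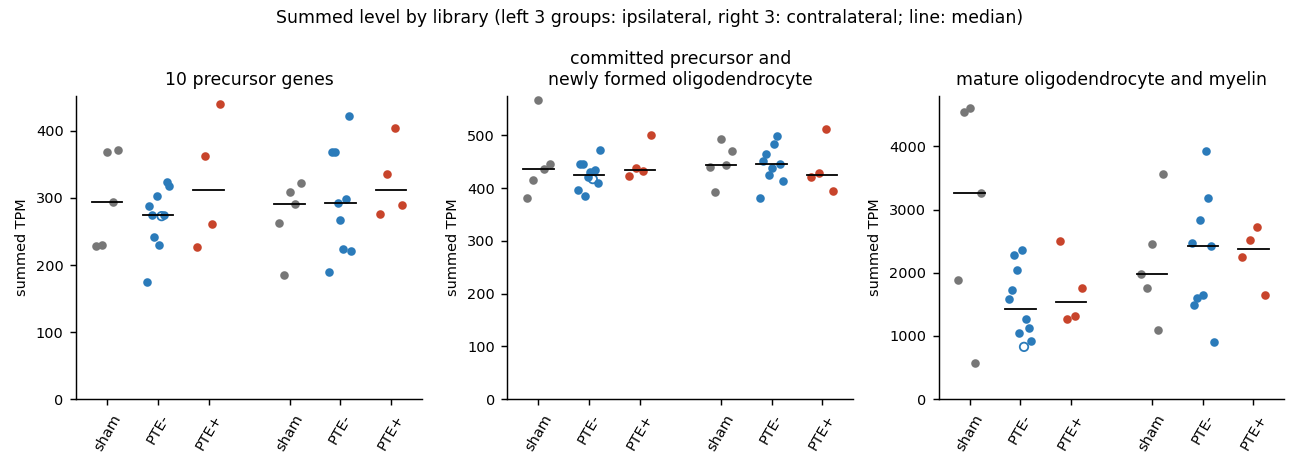
Summed TPM of the 10 precursor genes, of 11 committed precursor genes and of 19 myelin genes in each library, with the ipsilateral groups left and the contralateral groups right in each panel. Lines are medians and the open circle is PTE− mouse 9_14. The precursor sums have medians of 275 to 313 TPM in all 6 groups, while the ipsilateral medians of the myelin sum are 3262 TPM in sham, 1423 TPM in PTE− and 1534 TPM in PTE+ mice. Most of the precursor sum is Olig1 and Olig2, so it says little about the other precursor genes.

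Of the markers of other cells, which could carry precursor genes into the libraries, 0 of the mural, fibroblast, microglia, neuron and endothelial genes tested were DEGs in ipsilateral CCI against sham and in ipsilateral PTE+ against PTE− mice. In contralateral PTE+ against PTE− mice Tek (0.80), Pecam1 (0.78) and the neuronal gene Stmn2 (0.64) were higher. In contralateral PTE+ against sham mice Cldn5 was higher (0.77). Fn1 and Eno2 were lower in contralateral PTE− against sham mice, at −0.54 and −0.44. Pdgfra and the summed level of 9 fibroblast genes had r = 0.145 over 18 ipsilateral libraries without mouse 9_14 and r = 0.648 over 18 contralateral libraries. Their part in the Pdgfra values was not tested.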

How the data were processed

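RNA of ACSA-2 bead-isolated cortical cells was sequenced after SMART-Seq v4 amplification. Per the labels and the methods, the authors trimmed reads with Trim Galore (0.6.4), mapped them to mm10 with RSEM (1.2.28) and Bowtie2 (2.4.1) and deposited TPM per Ensembl gene, 1 table per hemisphere. The authors tested raw counts with DESeq2 (1.36.0), and those counts were not used here. TPM keep no depth, so the depth per library is unknown and no interval covers counting error. Whether reads were counted by strand is not given in the sources used here. Symbols and positions came from GENCODE vM21 (GRCm38), which named 21856 identifiers and not 119.

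Values of log2(TPM + 1) were fitted with limma (3.58.1, R 4.3.3), with a variance trend, after genes whose mean reached 5 TPM in no compared group were set aside, and p-values were adjusted over all of them (Benjamini-Hochberg). For single genes a two-sided exact permutation test enumerated the group labels (126 to 11628 arrangements), and hemispheres within a mouse by exact sign flips. The block rests on the mouse named in the labels. Over 10065 genes the hemispheres of a mouse deviated together from their group means (median r 0.419, 0.0427 to 0.691, above 0.1 in 16 of 17 mice). The fits were checked on simulated data. Alternatives were a pseudocount of 0.1, no filter or 1 TPM, quantile scaling, median centring, array weights, joint fitting of the 3 groups, the name prefix as a covariate, the mouse as a block, the log2 ratio of mean TPM, and leaving out single mice. Alternatives of the within-mouse fits, and the permutation tests and likeness without mouse 9_14, were added after seeing the data. The 10 genes, the gene lists and the tests were chosen with earlier results of these data known. All 10 genes are named, list genes by their calls, and 10 genes by their likeness to the mean of the precursor genes. Some genes that these rules name are not reported here. Tables and figures were made with matplotlib 3.10.9, scipy 1.17.1, pandas 2.3.3 and numpy 2.4.6 in Python 3.11.15.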

Additional observations from a re-analysis of the deposited data

Results flagged for a closer look

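Of 60 groups of libraries checked, 6 for each gene, 4 held a library whose gap to the next exceeded the 95% critical value of Dixon's test, where chance gives about 5%. PTE− mouse 9_14 was the lowest ipsilateral PTE− library for C1ql1 (0 TPM) and Lhfpl3 (0 TPM). PTE+ mouse 9_17 was the highest contralateral PTE+ library for Lhfpl3 (6.32 TPM), and PTE− mouse 9_20 the highest ipsilateral PTE− library for Vcan (5.12 TPM). The difference between hemispheres within a mouse differed between CCI-injured and sham mice for Olig2, by −0.51 (exact permutation p = 0.00275, n = 12 and 5), and for Olig1, by −0.37 (exact permutation p = 0.0200). In a test over all genes neither had an adjusted p under 0.05 (limma, 0.569 and 0.709). What lies behind these differences was not tested.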

How the results depend on the processing

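Of the 1698 values of single genes under an alternative, 1514 kept their direction and their side of the threshold, 40 passed it newly, 5 no longer passed it and 139 turned their sign without being a DEG under either setting. In 10 more the log2 ratio of mean TPM, which was not tested, had the other sign. The median Log2FC of all tested genes was 0.12 in ipsilateral PTE+ against PTE− mice, and single genes there lie on that shift. The number of precursor DEGs moved as follows. In ipsilateral CCI against sham it was 0, and 1 with quantile scaling or array weights and 0 to 1 with single mice left out (1 without 9_14). In ipsilateral PTE+ against PTE− it was 0, and 1 with array weights and 0 to 1 with single mice left out. In ipsilateral PTE− against sham it was 0, and 1 with array weights and 0 to 1 with single mice left out. In ipsilateral PTE+ against sham it was 1, and 0 in the fit of all 3 groups and 0 to 1 with single mice left out. In contralateral CCI against sham it was 0, and 1 with quantile scaling or median centring. In contralateral PTE+ against PTE− it was 0, and 0 to 1 with single mice left out. In contralateral PTE+ against sham it was 0, and 1 without a filter, with quantile scaling, median centring or array weights, and 0 to 1 with single mice left out. Between hemispheres without the replicate block it was 0 in PTE− mice, 1 with array weights, 2 with the replicate block by mouse and 1 without mouse 9_14. It was 0 in PTE+ mice, 2 with array weights, 1 with the block and 0 to 1 with single mice left out. The change after CCI of the hemisphere difference gave 0, with 1 under array weights and 2 with the block. Within the mouse, sham mice gave 0, with 1 under median centring and 0 to 1 with single mice left out. PTE− mice gave 2, with 4 at a filter of 1 TPM, where Sox10 and Lhfpl3 were added, and PTE+ mice 1, with 2 without a filter and 0 to 1 with single mice left out. The change after CCI within the mouse gave 2, with 1 (without sham mouse 9_10) to 4 (without sham mouse 8_16) with single mice left out. The cause was not tested. No PTE− mouse besides 9_14 was left out. Depth was unknown, and genes near 1 TPM, such as Vcan, are limited by it most.

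For ipsilateral CCI against sham mice the sign turned for Pdgfra to 0.0653 with quantile scaling and 0.46 with array weights, Sox10 to −0.15 with a pseudocount of 0.1 and Neu4 to 0.35 with array weights, and with single mice left out the range was −0.39 to 0.0548 for Pdgfra, −0.0868 to 0.43 for Cspg4, −0.16 to 0.22 for Sox10 and a single value of −0.15 for Gpr17. For ipsilateral PTE+ against PTE− mice the sign turned for Cspg4 to 0.0361 with a pseudocount of 0.1 and 0.18 with array weights, Sox10 to −0.45 with quantile scaling, −0.0664 with median centring, −0.37 with array weights and −0.048 with the name prefix as a covariate, Neu4 to −0.13 with quantile scaling and −0.0988 with array weights and Lhfpl3 to −0.0721 with quantile scaling, and with single mice left out the range was −0.15 to 0.22 for Cspg4, −0.0671 to 0.36 for Olig2 and −0.24 to 0.29 for Sox10. For ipsilateral PTE− against sham mice the sign turned for Pdgfra to 0.28 with array weights, Sox10 to −0.24 with a pseudocount of 0.1 and Neu4 to 0.41 with array weights, and with single mice left out the range was −0.13 to 0.43 for Cspg4 and −0.16 to 0.29 for Sox10. For ipsilateral PTE+ against sham mice the sign turned for Olig2 to −0.0381 with quantile scaling, −0.0722 with median centring, −0.0226 with array weights and −0.068 with the name prefix as a covariate and Neu4 to 0.30 with array weights, and with single mice left out the range was −0.091 to 0.43 for Cspg4, −0.15 to 0.10 for Olig1, −0.21 to 0.21 for Olig2 and −0.47 to 0.30 for Neu4. For contralateral CCI against sham mice the sign turned for C1ql1 to −0.0848 with array weights and Neu4 to 0.32 with a pseudocount of 0.1, 0.0179 with quantile scaling and 0.00564 with median centring, and with single mice left out the range was −0.48 to 0.0114 for Cspg4, −0.38 to −0.13 for Gpr17 and −0.14 to 0.54 for C1ql1. For contralateral PTE+ against PTE− mice the sign turned for Cspg4 to −0.0682 with quantile scaling and −0.46 with array weights, Olig2 to −0.010 with quantile scaling, −0.0341 with median centring and −0.10 with array weights and C1ql1 to 0.0341 with the name prefix as a covariate, and with single mice left out the range was −0.32 to 0.34 for Cspg4, −0.073 to 0.11 for Olig2, −0.34 to 0.25 for C1ql1 and 0.0628 to 0.19 for Neu4. For contralateral PTE− against sham mice the sign turned for Neu4 to 0.36 with a pseudocount of 0.1, 0.0665 with quantile scaling and 0.0541 with median centring, and with single mice left out the range was −0.13 to 0.54 for C1ql1. For contralateral PTE+ against sham mice the sign turned for Pdgfra to 0.00329 with quantile scaling, 0.0525 with median centring and 0.0992 with the name prefix as a covariate, Gpr17 to −0.23 with array weights, C1ql1 to −0.47 with array weights and Neu4 to 0.23 with a pseudocount of 0.1, and with single mice left out the range was −0.53 to 0.35 for Pdgfra, −0.57 to 0.0898 for Cspg4, −0.0497 to 0.80 for Gpr17, −0.16 to 0.52 for C1ql1, −0.72 to 0.13 for Neu4 and −0.36 to −0.16 for Lhfpl3. For sham mice, between hemispheres, with and without the replicate block, the sign turned for Sox10 to 0.0915 with quantile scaling, C1ql1 to 0.0255 with quantile scaling and 0.0445 with median centring and, without the block, Neu4 to −0.47 with array weights, and with single mice left out the range was −0.0147 to 0.0924 for Olig2, −0.21 to 0.0836 for C1ql1 and −0.15 to 0.0213 for Lhfpl3. For PTE− mice, between hemispheres without the replicate block the sign turned for Cspg4 to −0.0451 with array weights and −0.027 with the replicate block by mouse, C1ql1 to −0.21 with a pseudocount of 0.1 and Neu4 to 0.20 with the replicate block by mouse, and without mouse 9_14 the values were −0.027 for Cspg4 and 0.20 for Neu4. For PTE+ mice, between hemispheres without the replicate block the sign turned for Pdgfra to −0.0227 with the replicate block by mouse and Gpr17 to −0.0348 with the name prefix as a covariate and −0.18 with the replicate block by mouse, and with single mice left out the range was −0.043 to 0.60 for Pdgfra, −0.0849 to 0.37 for Cspg4 and −0.18 to 0.65 for Gpr17. For the change after CCI of the hemisphere difference without the replicate block the sign turned for Neu4 to 0.80 with array weights. For PTE+ mice, between hemispheres within the mouse, the sign turned for Pdgfra to 0.0219 with a pseudocount of 0.1 and 0.00339 with median centring, and with single mice left out the range was −0.50 to 0.13 for Pdgfra, −0.0827 to 0.60 for Cspg4 and −0.23 to 0.00626 for Neu4. For the change after CCI of the hemisphere difference within the mouse the sign turned for Neu4 to 0.0528 with array weights, and with single mice left out the range was −0.27 to 0.0614 for Neu4. Without mouse 9_14 the sign also turned where the exact permutation p became 0.895 for Pdgfra in ipsilateral CCI against sham, 0.885 for Cspg4 in ipsilateral CCI against sham, 0.620 for Cspg4 in ipsilateral PTE+ against PTE−, 0.703 for Sox10 in ipsilateral PTE+ against PTE−, 0.789 for Cspg4 in ipsilateral PTE− against sham and 0.733 for Gpr17 in ipsilateral PTE− against sham.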
